A study of Mus musculus with 8 samples.

Results

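Sox transcription factors were examined in mCherry+CD73+ cells of the mouse growth plate, sorted from mice treated with the vehicle DMSO or with the Smoothened agonist SAG. The rule named 9 genes, Sox4, Sox5, Sox6, Sox8, Sox9, Sox11, Sox12, Sox17 and Sox18, and 8 of them were analysed among the 16536 genes of the count table. Sox17 was not analysed here. The chondrogenic trio Sox5, Sox6 and Sox9 was set beside the other 5, and Sox1, Sox7, Sox10 and Sox13 are given for comparison. All mice carried the Pthrp-mCherry reporter, in which mCherry marks cells that express Pthrp. DMSO (n = 4) or SAG (n = 4) was injected i.p. once daily from P30 to P36, and the mice were killed at P38. From each mouse, cells of 2 femoral growth plates, labelled as metaphyseal growth plate, were pooled into 1 library, so that n counts mice. The study asked what activation of Hedgehog signalling changes in these stem-like cells of the resting zone. In such bulk libraries, fewer cells of a type and less RNA per cell cannot be told apart.

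Sox proteins bind DNA through an HMG box, a domain that bends the double helix, and they act mostly together with partner factors. Sox9, of the SoxE group, is required for cells to become chondrocytes. The SoxD proteins Sox5 and Sox6 carry no activation domain of their own and help Sox9 on the enhancers of cartilage matrix genes. Sox4, Sox11 and Sox12 form the SoxC group, which acts in many progenitor cells, and Sox4 is also required for B-cell development in bone marrow. Sox7, Sox17 and Sox18 form the SoxF group of endothelial cells.

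All 7 Sox genes of the rule that passed the filter on low counts had a lower fitted level in cells from SAG-treated mice, and 1 of them, Sox4, passed the test. Sox4 fell to 29.2% of its DMSO level, and no SAG mouse reached the level of any DMSO mouse. Sox9, Sox5 and Sox6 stood at 56.3%, 56.0% and 57.4% of their DMSO levels, with overlapping groups, and did not pass the test after adjustment. The median log2 fold change was -0.83 over the 7 genes and -0.08 over all 15421 genes tested. The background was 0.266% of genes called lower (41 genes), 3.84% with every SAG mouse below every DMSO mouse, 6.50% lower at an unadjusted p under 0.05, and 54.8% with a negative fold change. The members' counts were 1, 1, 5 and 7 of 7, in the same order. DESeq2 called 1 of the 7 lower, where it called 3.23% of genes, and limma voom called 3, Sox4, Sox5 and Sox9, where it called 2.58%.

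Total counts ranged from 24971992 to 46593090 per library, and 3 counts corresponded to 0.0644 to 0.120 CPM, the unit of all levels below, which is the count scaled to the size of its library with TMM factors. DMSO replicate 4 had the lowest total and the fewest genes detected (14416, against 15524 to 16285 in the others). SAG replicate 2 had the lowest summed CPM of 15 chondrocyte markers, at 19217. The other SAG mice reached 45942 to 54245, DMSO replicate 4 reached 47727, and the other DMSO mice reached 86300 to 112110. Results were therefore also computed without DMSO replicate 4 and SAG replicate 2. These mice were picked out after their values were seen, partly by chondrocyte markers that Sox9 and its targets follow, so calls made without them are descriptions and no independent support. Of the genes that marked the sorted cells, Pthlh, which encodes PTHrP, was at 18.5 ± 3.15 CPM with DMSO and 23.8 ± 4.79 with SAG, and Nt5e, which encodes CD73, was at 228 ± 47.8 and 159 ± 12.5 (SD, n = 4). Neither passed the test (edgeR, adjusted p = 0.606 and 0.186), although for Nt5e every SAG mouse, at 149 to 174 CPM, was below every DMSO mouse, at 184 to 269.7 CPM. Such a separation was found for 3.84% of all genes tested.

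The upstream sequences of the 3 SoxC genes are shown because this group held the one gene that passed the test, Sox4, beside Sox12, whose log2 fold change was the smallest in size among the members tested. Each line gives the 250 bases before the RefSeq transcript start on GRCm38.p6, read 5′ to 3′ on the gene's strand. The intervals, all on the minus strand, are chr13:28953700-28953949 for Sox4, chr12:27342719-27342968 for Sox11 and chr2:152398047-152398296 for Sox12. Capitals mark matches, on either strand, to CCAAT (the CCAAT box) or GGGCGG (the GC box).
Sox4: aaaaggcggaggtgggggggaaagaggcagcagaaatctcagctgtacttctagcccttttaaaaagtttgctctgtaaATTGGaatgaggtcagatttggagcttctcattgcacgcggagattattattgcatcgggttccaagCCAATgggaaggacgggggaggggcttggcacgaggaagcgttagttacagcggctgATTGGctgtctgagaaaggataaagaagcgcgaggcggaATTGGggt
Sox11: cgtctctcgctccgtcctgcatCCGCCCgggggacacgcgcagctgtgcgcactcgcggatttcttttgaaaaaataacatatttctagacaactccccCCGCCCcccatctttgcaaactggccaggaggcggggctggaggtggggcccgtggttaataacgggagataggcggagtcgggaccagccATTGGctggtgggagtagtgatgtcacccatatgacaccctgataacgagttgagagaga
Sox12: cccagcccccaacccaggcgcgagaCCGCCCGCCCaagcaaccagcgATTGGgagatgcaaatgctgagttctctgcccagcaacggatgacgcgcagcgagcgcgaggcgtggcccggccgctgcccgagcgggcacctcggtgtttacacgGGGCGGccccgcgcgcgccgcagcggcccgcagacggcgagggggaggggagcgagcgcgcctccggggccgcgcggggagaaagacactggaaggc
The Sox4 stretch held 4 CCAAT matches and no GC box. As many CCAAT matches were found in 0.842% of the 32536 distinct upstream stretches in the table, and at least 1 in 33.8%. The Sox11 stretch held 1 CCAAT match and 2 GC boxes, and the Sox12 stretch held 1 CCAAT match and 3 GC boxes, 2 of which overlapped. At least 1 GC box was present in 33.0% of all stretches. GC content was 50.8% for Sox4, 58.0% for Sox11 and 74.4% for Sox12, against a median of 52.4%.

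Among the 11 upstream stretches found for 6 members, 6 belonged to alternative starts of Sox6, for which the table holds 1 count per library. The core bound by Gli factors, ACCACCC on either strand, occurred in 0 of the 11 and in 3.92% of all stretches. A Sox core, AACAAT on either strand, occurred in 1 of the 11, with 2 matches upstream of a Sox6 start, and in 9.35% of all. The TATA box, TATAAA, occurred upstream of another Sox6 start and in 12.3% of all. These matches describe letters in a window and were not linked to the expression values.

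Sox9 was the most abundant of the 8 genes per length in every mouse. On the scale of CPM per kb of exon sequence, the level of Sox9 was 154 ± 49.9 with DMSO and 86.8 ± 32.5 with SAG, and that of Sox8 was 63.8 ± 24.5 and 39.7 ± 19.5 (SD, n = 4). Sox8, also of the SoxE group, held the next place in all mice of both groups. Sox5, Sox4 and Sox6 followed in the DMSO mice at 14.1, 12.5 and 11.1 CPM per kb. Their order was not the same from mouse to mouse, with Sox5 above Sox4 in 3 of 4 mice and Sox4 above Sox6 in 2 of 4. In the SAG mice the same 3 genes stood at 7.89 for Sox5, 6.37 for Sox6 and 3.66 for Sox4. There, Sox5 exceeded Sox6 in 3 of 4 mice, and Sox6 exceeded Sox4 in 3 of 4.

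The lower end of the order held Sox12, at 2.26 CPM per kb with DMSO and 1.87 with SAG, Sox11, at 1.13 and 0.445, and Sox18, at 0.217 and 0.200. The order of Sox6 and Sox4 in the DMSO mice depended on the exon length used. With the longest transcript in place of the union of exons, Sox5 and Sox6 were at 27.9 and 19.0 with DMSO, above Sox4 at 12.5.

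**Figure D1:**
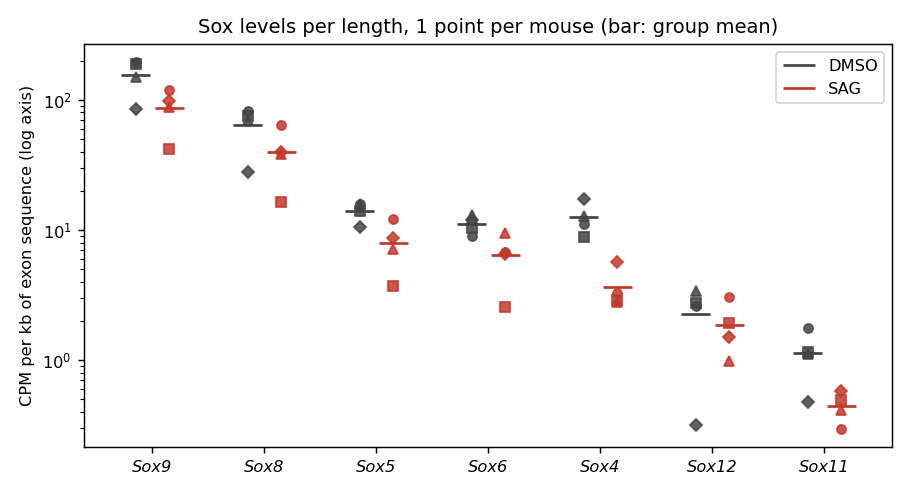
Level of 7 Sox genes in CPM per kb of exon sequence (log axis), 1 point per mouse and a bar at each group mean, with marker shape giving the replicate number. Sox9 and Sox8 lie above the other 5 genes in both groups, and Sox4 stands beside Sox5 and Sox6 with DMSO and below both means with SAG.

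The trio was described first. Sox9 (ENSMUSG00000000567.5, chr11:112782224-112787760 of GRCm38, plus strand) was at 803, 773, 622 and 352 CPM in DMSO replicates 1 to 4 and at 491, 174, 366 and 404 CPM in SAG replicates 1 to 4. DMSO replicate 4 lay within the range of the SAG mice, while the other 3 DMSO mice lay above all SAG mice. The means were 637 ± 206 and 359 ± 134 CPM, and the log2 fold change was -0.83 with a standard error (SE) of 0.33 (edgeR quasi-likelihood test, adjusted p = 0.235).

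Sox5 (ENSMUSG00000041540.16, chr6:143828425-144781977, minus strand) was at 227, 202, 228 and 153 CPM with DMSO and 173, 53.4, 102 and 125 CPM with SAG. SAG replicate 1 exceeded DMSO replicate 4, and no other SAG mouse exceeded any DMSO mouse. The means were 202 ± 35.2 and 113 ± 49.8 CPM, with a log2 fold change of -0.84 and an SE of 0.31 (edgeR, adjusted p = 0.191).

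Sox6 (ENSMUSG00000051910.13, chr7:115470872-116038796, minus strand) was at 134, 155, 192 and 178 CPM with DMSO and 101, 38.1, 141 and 97.7 CPM with SAG. SAG replicate 3 exceeded DMSO replicate 1, and the groups were otherwise apart. Unlike that of Sox9 and Sox5, the lowest DMSO value of Sox6 was not in DMSO replicate 4. The means were 165 ± 25.8 and 94.5 ± 42.5 CPM, with a log2 fold change of -0.80 and an SE of 0.32 (edgeR, adjusted p = 0.245).

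The log2 fold changes of the trio thus lay between -0.84 and -0.80, and those of the other 4 members tested between -1.77 and -0.27, with a median of -1.01. Without DMSO replicate 4 and SAG replicate 2, a choice made after seeing the data and tied to the level of Sox9 itself through the chondrocyte markers, Sox9 was at -0.80 with an SE of 0.17 (edgeR, adjusted p = 0.0166). Sox5 was then at -0.72 (adjusted p = 0.0597) and Sox6 at -0.50 (adjusted p = 0.212). With limma voom and sample quality weights, which give less weight to libraries that stand apart, Sox9 and Sox5 were at -1.003 and -1.004 and passed (adjusted p = 0.0457 and 0.0376), and Sox6 was at -0.82 and did not (adjusted p = 0.146).

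**Figure D2:**
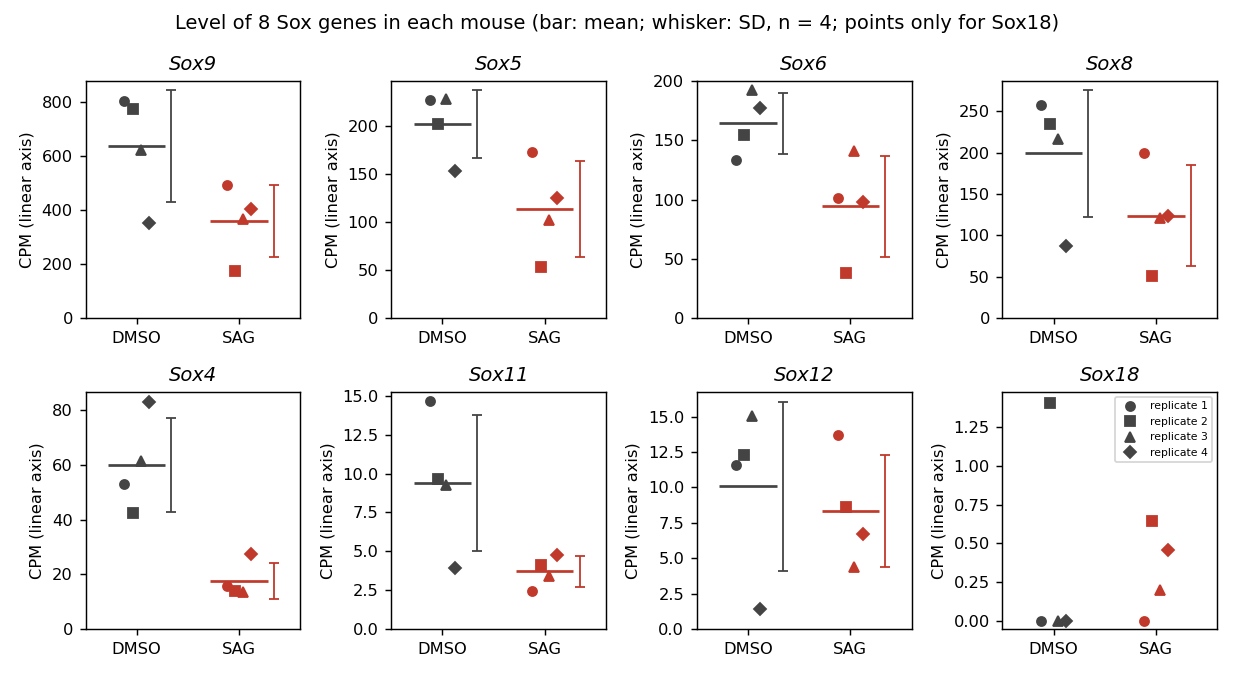
CPM of the 8 Sox genes in each mouse on linear axes, with bars at the means and whiskers of 1 SD (n = 4; points only for Sox18). The groups of Sox4 do not overlap, at 42.6 to 83.3 CPM with DMSO and 13.4 to 27.3 with SAG, whereas those of the trio and of Sox8, Sox11 and Sox12 do.

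Sox8, which overlaps Sox9 in DNA binding, lies on chr17:25565892-25570686 (ENSMUSG00000024176.10, minus strand). It was at 257, 234, 217 and 87.1 CPM with DMSO and 200, 51.4, 120 and 123 CPM with SAG. The pattern was that of Sox9, with DMSO replicate 4 among the SAG mice and SAG replicate 2 lowest. The means were 199 ± 76.3 and 124 ± 60.6 CPM, with a log2 fold change of -0.68 and an SE of 0.40 (edgeR, adjusted p = 0.457). Without DMSO replicate 4 and SAG replicate 2, it was at -0.67 with an SE of 0.21 (adjusted p = 0.0913). An antisense gene, 2810468N07Rik, overlaps the start of Sox8 and was not analysed here, and the strand setting of the counting was not given in the sources used here.

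Of the SoxC group, Sox4 (ENSMUSG00000076431.4, chr13:28948919-28953713, minus strand, a single exon) was at 53.0, 42.6, 61.4 and 83.3 CPM in the DMSO mice and at 15.6, 13.9, 13.4 and 27.3 CPM in the SAG mice. Every SAG mouse was below every DMSO mouse, and replicate 4 was the highest in both groups. The means were 60.1 ± 17.3 and 17.6 ± 6.56 CPM, and the log2 fold change was -1.77 with an SE of 0.31 (edgeR, adjusted p = 0.0146). The adjusted p was under 0.05 in 14 of 16 alternatives and rose to 0.0538 without DMSO replicate 3 and to 0.0562 without SAG replicate 2. Without both DMSO replicate 4 and SAG replicate 2, Sox4 was at -1.49 with an SE of 0.31 (adjusted p = 0.0126).

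Sox11 (ENSMUSG00000063632.6, chr12:27334264-27342574, minus strand, a single exon) was at 14.7, 9.67, 9.30 and 3.95 CPM with DMSO and 2.47, 4.14, 3.41 and 4.79 CPM with SAG. DMSO replicate 4 lay within the SAG range and the other 3 DMSO mice above it. The means were 9.40 ± 4.38 and 3.70 ± 0.995 CPM, with a log2 fold change of -1.34 and an SE of 0.55 (edgeR, adjusted p = 0.249). Without DMSO replicate 4 the fold change was -1.57 (adjusted p = 0.0507), and without that mouse and SAG replicate 2 it was -1.66 (adjusted p = 0.0826).

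Sox12 (ENSMUSG00000051817.8, chr2:152393611-152398063, minus strand) was at 11.6, 12.3, 15.01 and 1.40 CPM with DMSO and 13.7, 8.60, 4.36 and 6.71 CPM with SAG. The groups overlapped widely, and the value of DMSO replicate 4, from 37 counts, was below all others. The means were 10.1 ± 5.96 and 8.34 ± 3.98 CPM, with a log2 fold change of -0.27 and an SE of 0.65 (edgeR, adjusted p = 0.898). Without DMSO replicate 4 and SAG replicate 2 it was at -0.65 with an SE of 0.49 (adjusted p = 0.557).

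Sox18 (ENSMUSG00000046470.5, chr2:181669836-181671640, minus strand), a factor of endothelial cells, had 0, 63, 0 and 0 counts in the DMSO mice and 0, 27, 8 and 20 counts in the SAG mice. It did not pass the filter and was not tested. A count of 0 allowed up to 0.120 CPM of the library total, without TMM factors, in the shallowest library. Of 13 endothelial markers, 0 were called in either direction (edgeR, with 0 at an unadjusted p under 0.05 and 0 called by DESeq2 or limma voom), and none was at 0 in all mice. Their summed CPM was 72.9 to 178 with DMSO and 117 to 139 with SAG. The most abundant were Erg (log2 fold change 0.77), Pecam1 (-0.18), Eng (-0.78) and Cdh5 (-1.26). On a log2 scale Sox18 relative to the mean of these markers differed by 1.19 between the groups (exact permutation test, 2-sided, p = 0.429, adjusted p = 0.571 over 4 such relations), a value that rests on counts at or near 0.

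The other Sox genes in the table were all scarce. Sox13, of the SoxD group, was at 5.47 ± 5.76 CPM with DMSO and 7.76 ± 3.67 with SAG, and Sox10, of the SoxE group, at 3.74 ± 3.50 and 1.98 ± 1.20. Sox7, of the SoxF group, had 91, 17, 38 and 0 counts with DMSO and 206, 35, 25 and 251 with SAG, and Sox1, of the SoxB1 group, had 97, 9, 36 and 36 counts and 18, 8, 6 and 5. By edgeR, none of the 4 passed the test or had an unadjusted p under 0.05. Limma voom called 0, and DESeq2 called 0 of the 1 it gave an adjusted p. For Sox1, DESeq2 gave an unadjusted p of 0.0499 and no adjusted p. The log2 fold changes of Sox13, Sox10, Sox7 and Sox1 were 0.50, -0.92, 1.84 and -2.33 (edgeR, adjusted p = 0.848, 0.804, 0.585 and 0.417), and the groups overlapped for each.

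The makeup of the family overlapped between the groups. Of the summed CPM per kb of the 8 genes, Sox9 held 55.3% to 62.3% in the DMSO mice and 57.0% to 60.9% in the SAG mice, and Sox5 held 4.68% to 6.91% and 4.81% to 5.78%. The Sox4 share was 2.96% to 11.3% with DMSO and 1.56% to 4.11% with SAG, and these ranges overlapped. Likewise, the Sox4 count was 5.51% to 23.7% of the Sox9 count with DMSO and 3.18% to 8.01% with SAG, and whether the change of Sox4 differed from that of Sox9 was not tested. The Sox5 count was 26.1% to 43.4% of the Sox9 count with DMSO and 27.95% to 35.3% with SAG, and the Sox6 count was 16.6% to 50.5% and 20.6% to 38.6%. In both trio ratios, DMSO replicate 4 was the highest of the DMSO mice.

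The next question was whether cartilage genes that Sox9 is known to activate stood lower as well. All 14 such genes had negative log2 fold changes, from -1.99 to -0.61 with a median of -1.01, 12 had an unadjusted p under 0.05, and 0 were called after adjustment by edgeR. DESeq2 called 7 of them lower and limma voom 10. Over all genes, 54.8% had a negative fold change and 6.50% were lower at an unadjusted p under 0.05. DESeq2 called 3.23% of all genes lower and limma voom 2.58%. Without DMSO replicate 4, edgeR called 11, and without that mouse and SAG replicate 2 it called 13. Over all genes, lower calls were 343 and 298 in these fits, against 41 with all mice. Both mice were picked out by markers of which 11 are also in this target list, so these counts depend on the outcome. Col2a1, which encodes the main collagen of cartilage, was at 53695 ± 15452 CPM with DMSO and 26432 ± 10027 with SAG (log2 fold change -1.02, SE 0.35, adjusted p = 0.158). Cnmd, encoding chondromodulin, Col11a1, encoding a minor fibrillar collagen, and Acan, encoding the proteoglycan aggrecan, were at -0.81, -0.91 and -0.86 (edgeR, adjusted p = 0.347, 0.208 and 0.262). Matn1 and Matn3, which encode matrilins, were the 2 targets with no overlap between the groups, and they were picked out after their values were seen. Their log2 fold changes were -1.99 and -1.10 (edgeR, adjusted p = 0.0543 and 0.0922). Every SAG mouse was below every DMSO mouse for 3.84% of all genes tested.

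**Figure D3:**
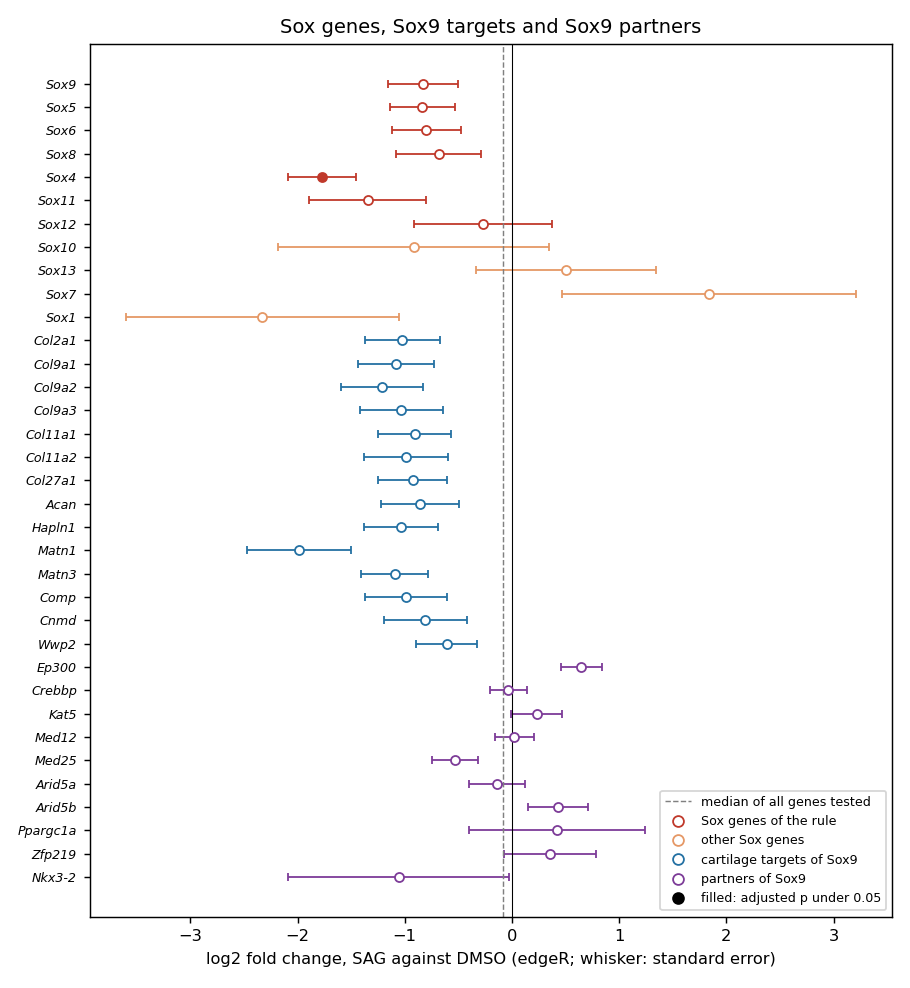
Log2 fold change, SAG against DMSO, with its SE (edgeR) for 11 Sox genes, 14 cartilage targets of Sox9 and 10 partners of Sox9, with Wwp2, listed as both, drawn once among the targets. The dashed line is the median of all genes tested (-0.08). Sox4 is the only filled point (adjusted p under 0.05), and all target genes lie left of 0.

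Sox9 was set against its targets within each mouse, which removes any difference common to both. The Sox9 count was 1.17%, 1.29%, 1.16% and 1.08% of the Col2a1 count in the DMSO mice and 1.58%, 1.48%, 1.27% and 1.18% in the SAG mice. It was 11.4% to 13.7% of the Acan count with DMSO and 11.8% to 13.9% with SAG. The ranges overlapped for both. On the log2 scale Sox9 relative to Col2a1 differed by 0.22 (exact 2-sided permutation test, p = 0.114, adjusted p = 0.229) and Sox9 relative to Acan by 0.02 (p = 0.714, adjusted p = 0.714), a difference whose sign changed when single mice were left out.

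Relative to the mean log2 CPM of the 15 chondrocyte markers, 11 of which are also in the target list, Sox9 was at -1.19, -1.08, -1.13 and -1.07 in the DMSO mice and -0.63, -0.82, -0.94 and -1.06 in the SAG mice. Every SAG mouse was above every DMSO mouse, so in these mice Sox9 was lower by less than the marker mean was, on average by 0.26. The log2 fold changes of the markers ranged from -1.99 to -0.55, on both sides of that of Sox9 at -0.83. The size of the difference therefore depended on the markers taken. The exact 2-sided permutation test gave p = 0.0286, the smallest that 4 mice against 4 allow, and 0.114 after adjustment over the 4 relations. With any 1 mouse left out the difference was 0.18 to 0.32 and the smallest p possible was 0.0571.

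**Figure D4:**
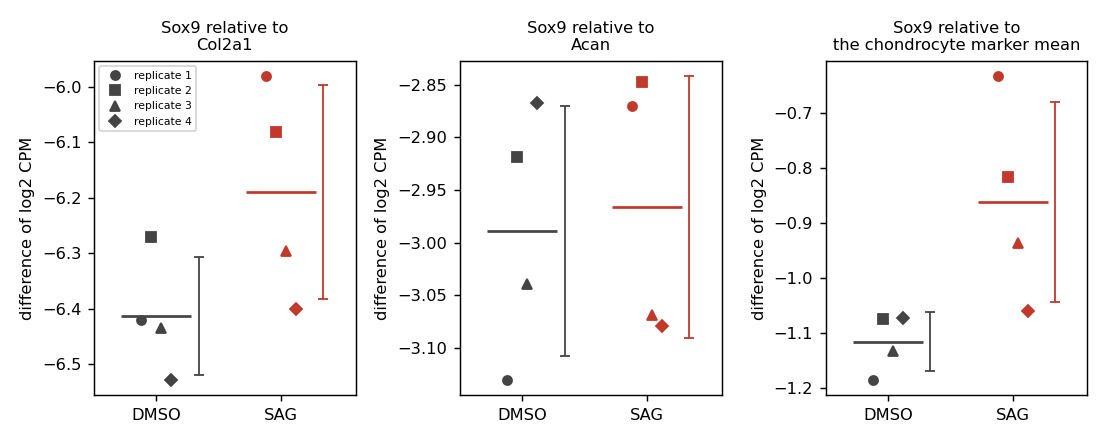
Sox9 minus Col2a1, Acan or the mean of 15 chondrocyte markers, as a difference of log2 CPM within each mouse, with bars at the means and whiskers of 1 SD (n = 4). The groups overlap for Col2a1 and Acan, and for the marker mean the SAG mice (-1.06 to -0.63) lie above the DMSO mice (-1.19 to -1.07).

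Partners and coactivators of Sox9 were described next. Of 11 listed genes, 5 had negative and 6 positive log2 fold changes, with a median of 0.02, where 54.8% of all genes were negative and their median was -0.08. By edgeR, 0 were called in either direction, and 1 was lower and 1 higher at an unadjusted p under 0.05. DESeq2 called 1 higher, and limma voom called 1 in each direction. Over all genes, 6.50% were lower and 9.58% higher at an unadjusted p under 0.05. DESeq2 called 6.60% of all genes higher, and limma voom called 2.58% lower and 995 of 15421 higher. The ubiquitin ligase gene Wwp2 was at 747 ± 189 CPM with DMSO and 489 ± 173 with SAG (log2 fold change -0.61, adjusted p = 0.320), and the acetyltransferase gene Crebbp was at 287 ± 43.7 and 281 ± 34.5 (-0.03, adjusted p = 0.956). Ep300, which encodes the related acetyltransferase p300, was at 220 ± 29.3 and 345 ± 68.8 CPM, and its groups overlapped by the narrow margin of 260 against 258 CPM (log2 fold change 0.65, SE 0.19, adjusted p = 0.103). Among Mediator subunits, Med12 was at 0.02 (edgeR, adjusted p = 0.971), and Med25, picked out after its values were seen, was at -0.53 with no overlap between the groups (SE 0.22, adjusted p = 0.253). Of all genes tested, 3.84% had every SAG mouse below every DMSO mouse. Of the SoxC targets listed, Tead2 was analysed, at 2.32 ± 2.04 CPM with DMSO and 2.10 ± 1.59 with SAG (edgeR, adjusted p = 0.975).

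For each member tested, the 3 genes with the most similar profile over the 8 mice were taken from 9307 genes, as the smallest root mean square (RMS) difference of centred log2 CPM. The genes nearest to Sox9 were Col11a1 (RMS difference 0.0935), Tns2 (0.0960) and Acan (0.106), where Sox9 itself varied by an RMS of 0.677 about its mean. Those nearest to Sox8 were Papss2 (0.112), Tsc22d1 (0.122) and Cnmd (0.128), and those nearest to Sox5 were Plcb1 (0.136), Mcc (0.145) and Net1 (0.156). Col11a1, Acan and Cnmd are cartilage matrix genes, and Papss2 makes the sulfate donor used in proteoglycans.

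Sox6 was most like Fam171a1 (0.212), Copz2 (0.220) and Myh10 (0.257). The neighbours of the SoxC genes were Armcx2 (0.333), Cplx2 (0.342) and Ebf1 (0.370) for Sox4, Sufu (0.289), Ccdc112 (0.298) and Olfr1286 (0.344) for Sox11, and Gcfc2 (0.281), 1810043G02Rik (0.296) and Hhat (0.309) for Sox12. These members varied more about their own means, by an RMS of 0.974 for Sox4, 0.820 for Sox11 and 1.06 for Sox12, than Sox6 did (0.696). Ebf1 encodes a factor of early B cells, Sufu encodes an inhibitor of Gli factors, and Hhat encodes the enzyme that attaches palmitate to Hedgehog ligands. The 8 points of each comparison share libraries, depth and cell makeup.

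Markers of other cells moved with the groups, and their values are given beside Sox4. Of 11 B-lineage markers tested, all had negative log2 fold changes, with a median of -3.33, and 3 were called lower, among them Pax5 (-3.61) and Cd79a (-2.67). DESeq2 called 9 of 10 lower, where it called 3.23% of genes, and limma voom 2 of 11, where it called 2.58%. With edgeR, which called 0.266% of all genes lower with all mice, 1 marker was called without DMSO replicate 3, SAG replicate 2, SAG replicate 3 or SAG replicate 4. The other 2 among the most abundant, Ebf1 and Blnk, were at -1.57 and -2.31 (edgeR, adjusted p = 0.0576 and 0.0822). Summed over 12 markers, the level was 109, 91.5, 291 and 476 CPM in DMSO replicates 1 to 4 and 27.4, 35.6, 22.5 and 50.04 CPM in SAG replicates 1 to 4. The DMSO mice had the same order for this sum and for Sox4, with replicate 4 highest and replicate 2 lowest. That order was not particular to B-lineage markers, since the summed neutrophil and erythroid markers described below had it too. Among the SAG mice, replicate 4 was highest for Sox4 and for the B-lineage sum. Replicate 1 was above replicate 2 for Sox4 and below it for the B-lineage sum. The highest SAG mouse was replicate 2 for the neutrophil sum and replicate 3 for the erythroid sum. None of the 12 B-lineage markers was at 0 in all mice.

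Of 14 neutrophil markers, 10 were called higher, where 2.62% of all genes were, and 0 were called lower, with a median log2 fold change of 2.01. Without DMSO replicate 3, 4 were called higher. The 4 most abundant, S100a9, Ngp, S100a8 and Ltf, were at 2.00, 2.01, 2.25 and 2.03. The others called were Camp, Lcn2, Mmp8, Mmp9, Retnlg and Cxcr2, at 1.57 to 2.24. Their summed CPM was 5065 to 14901 with DMSO and 28528 to 45403 with SAG, so the groups did not overlap. The part of B-lineage or neutrophil RNA in the Sox values was not tested.

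The remaining lists had 0 members called by edgeR with all mice. Over all genes, 6.50% were lower and 9.58% higher at an unadjusted p under 0.05. DESeq2 called 3.23% of genes lower and limma voom 2.58%. Of the 15 chondrocyte markers, led by Col2a1, Cnmd, Acan and Col11a2, all had negative log2 fold changes with a median of -1.03, and 13 had an unadjusted p under 0.05. DESeq2 called 8 of these lower and limma voom 9. Without DMSO replicate 4, edgeR called 11, and without that mouse and SAG replicate 2 it called 14. Over all genes, lower calls were 343 and 298 in these fits, and both mice were picked out partly by these markers. The 10 osteoblast markers, led by Col1a1, Ibsp, Spp1 and Alpl, had a median of -1.30 (3 lower at an unadjusted p under 0.05, 3 by DESeq2 and 2 by limma voom), and the 10 erythroid markers, led by Hba-a2, Hbb-bs, Hbb-bt and Hba-a1, a median of -0.57 (0 at an unadjusted p under 0.05 and 0 by the other tools). The 5 T and NK cell markers, led by Cd3d, Nkg7, Cd2 and Cd3g, had a median of 0.16 (2 lower and 1 higher at an unadjusted p under 0.05, 1 lower by DESeq2), and the 6 marrow stroma markers, led by Foxc1, Cxcl12, Ebf3 and Lepr, a median of 0.02 (1 lower at an unadjusted p under 0.05 and 1 lower by limma voom). Summed erythroid CPM was 1112, 1081, 3851 and 10030 in the DMSO mice and 798, 553, 5982 and 2855 in the SAG mice, and the groups overlapped.

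**Figure D5:**
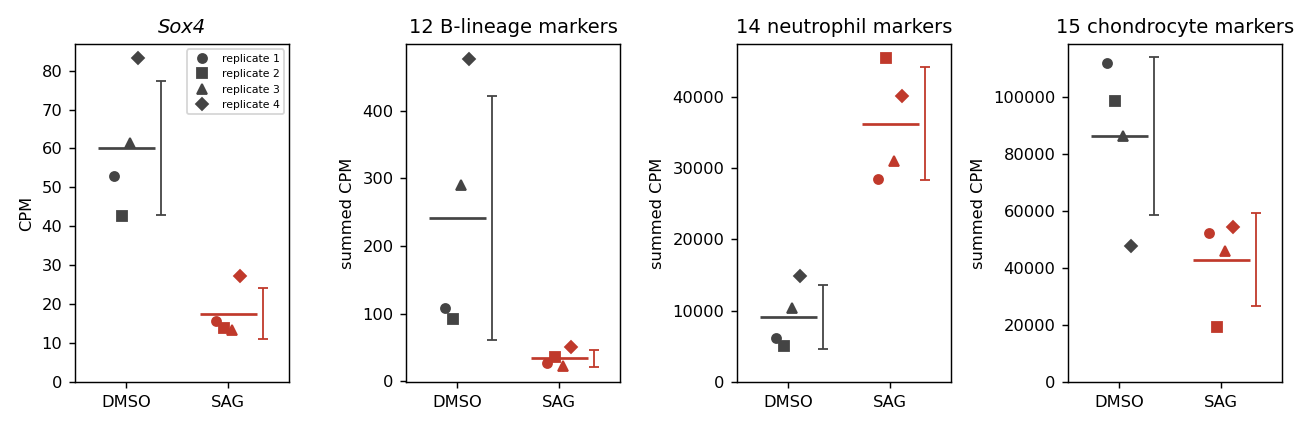
Sox4 CPM and summed CPM of B-lineage, neutrophil and chondrocyte markers in each mouse on linear axes from 0, with bars at the means and whiskers of 1 SD (n = 4). Sox4 and the B-lineage sum are highest in replicate 4 of each group, the neutrophil sum is higher in all SAG mice, and DMSO replicate 4 (47727) lies within the SAG range of the chondrocyte sum.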

How the data were processed

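RNA was extracted from the sorted cells of 8 mice, and libraries were made with a stranded total RNA kit for low input. The authors deposited raw counts per gene and library as whole numbers, with no normalization. The submitters' processing notes name kallisto, DESeq2 and GRCm38, and versions were not given in the sources used here. GENCODE release M21 (GRCm38) gave identifiers, coordinates and exon lengths for all 16536 symbols. Counts of genes with many transcripts or overlapping genes depend on how the authors summed and stranded them.

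The members and lists were chosen with earlier results of these data known. In R 4.3.3 with edgeR 4.0.16, the filter filterByExpr left 15421 genes, TMM factors were applied, and a robust quasi-likelihood test of SAG against DMSO was run on all 8 libraries, with Benjamini-Hochberg adjustment over all genes tested and a threshold of 0.05. SEs were the log2 fold change divided by the root of the F statistic, and log2 CPM used a prior count of 2. Single values were compared by exact 2-sided permutation tests over 70 relabellings. Alternatives were DESeq2 1.42.0, limma 3.58.1 voom with quality weights, other size factors and filters, a replicate block, and each mouse left out in turn. Scripts were tested on simulated data. Same-numbered mice of the groups correlated by -0.025 to 0.349, and 3 of 8 were nearest to their own number, so the numbers were not taken to pair mice.

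The text names all Sox genes in the table, the members of each list that were called or were among its 4 most abundant, and the 3 genes most like each member tested (mean CPM of at least 10). 1 list member that the rule would name is not reported here. RefSeq (GRCm38.p6) gave the upstream sequences. Those of Sox9 and Sox18 are not shown.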

Additional observations from a re-analysis of the deposited data

Results flagged for a closer look

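In groups of 4 mice, a sample was taken to stand apart where its gap to the nearest other as a share of the group's range exceeded Dixon's 95% critical value. Of 32 groups examined, 4 did, where 1.6 would be expected for independent groups of normally distributed values. The groups were not independent, since Sox18 in DMSO replicate 2 entered both as CPM and as a relative value. No conclusion is drawn from the number that stood apart. For Sox4 in the SAG mice the ratio was 0.839, with replicate 4 at 27.3 CPM and the next at 15.6. For Sox13 in the SAG mice it was 0.833, with replicate 4 at 2.33 CPM and the next at 9.03. For Sox18 in the DMSO mice it was 1, with replicate 2 at 1.41 CPM and the others at 0, and for Sox18 relative to the endothelial marker mean in the DMSO mice it was 0.878, with replicate 2 at -1.57 and the next at -5.64 on the log2 scale.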

How the results depend on the processing

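Over 16 alternatives for each of the 7 members tested, 106 of 112 values kept their direction and side of the threshold, and 111 were negative. With a replicate block, Sox4 was at -1.79 (adjusted p = 0.0269), Sox12 at 0.0021 and Sox10 at 0.15, and genes called lower numbered 18, with no other direction or call among the Sox genes changed. Over all genes, 404 higher and 41 lower calls became 797 and 390 with DESeq2, 995 and 398 with limma voom, 80 to 1017 and 4 to 343 with 1 mouse left out, and 87 lower with at least 10 counts in every sample. Sox4 was at -1.80 without DMSO replicate 3 and -1.68 without SAG replicate 2 (range with mice left out -2.07 to -1.49). Adjusted p over the alternatives was 1.16e-05 to 0.0562 for Sox4, 0.0376 to 0.366 for Sox5 and 0.0166 to 0.458 for Sox9, with Sox5 at -1.004 and Sox9 at -1.003 in voom and Sox9 at -1.02 to -0.60 with mice left out. The cause of these changes was not tested.

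Sox9 targets called lower were 7 with DESeq2, 10 with voom, 1 each with plain library size, the filter of at least 10 counts or no filter, and 0 to 11 with 1 mouse left out. Partners called were 1 higher with DESeq2, 1 higher and 1 lower with voom, and 0 to 1 either way with 1 mouse left out. The endothelial median turned positive with voom (0.0737) and ranged from -0.63 to 0.0355 with mice left out (0.0203 without DMSO replicate 4). Sox9 relative to Acan ranged from -0.0247 to 0.063 with 1 mouse left out (-0.0096 without SAG replicate 1, -0.0171 without SAG replicate 2), and Sox9 relative to the marker mean from 0.18 to 0.32.

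Leaving out both DMSO replicate 4 and SAG replicate 2, chosen after seeing the data, gave 731 genes higher and 298 lower, 13 targets lower, 1 partner each way, Sox9 at -0.80 and the endothelial median of 0.0355. Plain library size moved the median of all genes by -0.0545. Levels up to 0.120 CPM of the library total, without TMM factors, were not distinguishable from 0 at the lowest depth.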
